A study of Mus musculus with 2 samples.

Results

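Mir205 and Mir203 are microRNA (miRNA) genes of surface epithelium, and their levels are described here in the facial prominences of mouse embryos. They were taken by symbol, which gave 2 genes of the 1973 miRNA genes in the count tables. Facial prominences of B6NCrl embryos at embryonic day 10.5 were pooled, 69 embryos in replicate 1 and 51 in replicate 2. Both pools hold males and females and are given as healthy. No genotype, treatment or other stage is compared, so the comparisons are between genes and between the pools. The whole prominence was used, so each value is a mixture over mesenchyme, epithelium, vessels and blood.

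The facial prominences consist of neural crest mesenchyme under a sheet of surface ectoderm, which later forms epidermis, oral lining and the placodes of the lens, nose and ear. miR-205 is known from surface ectoderm and stratified epithelia such as epidermis, where it is needed for the expansion of skin stem cells, and it represses the mesenchymal regulators Zeb1 and Zeb2 together with the miR-200 family. miR-203 is known from the outer, differentiating layers of the epidermis, where it represses p63, the regulator that keeps epithelial progenitors dividing. A miRNA gene is transcribed as a hairpin, from which Dicer releases an arm from either side, and bases 2 to 8 of the loaded arm (the seed) pair with target transcripts.

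The mature arms of both genes are shown because the seed is what tells their targets apart, and those of Mir203b because that hairpin lies on the opposite strand of Mir203 and the reads counted on that strand are given below. Sequences are those of the RefSeq miRNA table (GRCm38.p6), printed 5′ to 3′ with the seed in capitals. All 3 hairpins were in that table. Mir203b stands there under the symbol Gm51289.
miR-205-5p: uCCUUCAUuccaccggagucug
miR-205-3p: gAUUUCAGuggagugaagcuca
miR-203-3p: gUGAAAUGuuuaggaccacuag
miR-203-5p: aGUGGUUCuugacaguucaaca
miR-203b-5p: aGUGGUCCuaaacauuucac
miR-203b-3p: uUGAACUGucaagaaccacugg

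The 6 arms have 6 different seeds. None of these seeds occurs in any other of the 1679 arms of the table, so Mir205 and Mir203 have no seed relative in it. miR-203b-5p is the exact complement of 20 of the 22 bases of miR-203-3p, and miR-203b-3p overlaps miR-203-5p in 20 complementary bases.

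The hairpins are shown next, with the mature arms in capitals, because the deposited count of a gene adds up the reads of both arms and cannot be split between them.
Mir205: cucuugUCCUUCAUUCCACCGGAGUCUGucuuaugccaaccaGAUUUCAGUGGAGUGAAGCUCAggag
Mir203: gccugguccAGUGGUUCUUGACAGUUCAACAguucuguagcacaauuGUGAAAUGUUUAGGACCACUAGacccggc

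The Mir205 hairpin has 68 bases (ENSMUSG00000065533.1, mm10, chr1:193507463-193507530, minus strand). It lies within exon 2, the last exon, of the long non-coding transcript annotated as 4631405K08Rik in GENCODE and as Mir205hg in RefSeq. The Mir203 hairpin has 76 bases (ENSMUSG00000065574.1, mm10, chr12:112130880-112130955, plus strand) and lies in no annotated host gene. It is 3321 bp beyond the end of Aspg and 15253 bp before Kif26a, both on its own strand. Apart from Mir203b, which RefSeq places on the opposite strand of Mir203, both genes stand alone, unlike the clustered Mir200 genes. In GENCODE M21 the nearest miRNA gene to Mir203 is Mir3073a, 21558 bp away, with 3 counts in replicate 1 and 5 in replicate 2. For Mir205 it is Mir3962, 1314471 bp away, with 0 and 1. Predicted folding energies were -33.8 kcal/mol for Mir205 and -35.1 kcal/mol for Mir203, against a median of -32 kcal/mol over 1005 hairpins. GC contents were 50% and 48.7%, against a median of 51.7%. Neither hairpin, nor any of the 5 Mir200 hairpins, shares a 20-base stretch with another annotated miRNA gene, so loss of reads to identical copies elsewhere does not enter these counts through such stretches.

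**Figure D1:**
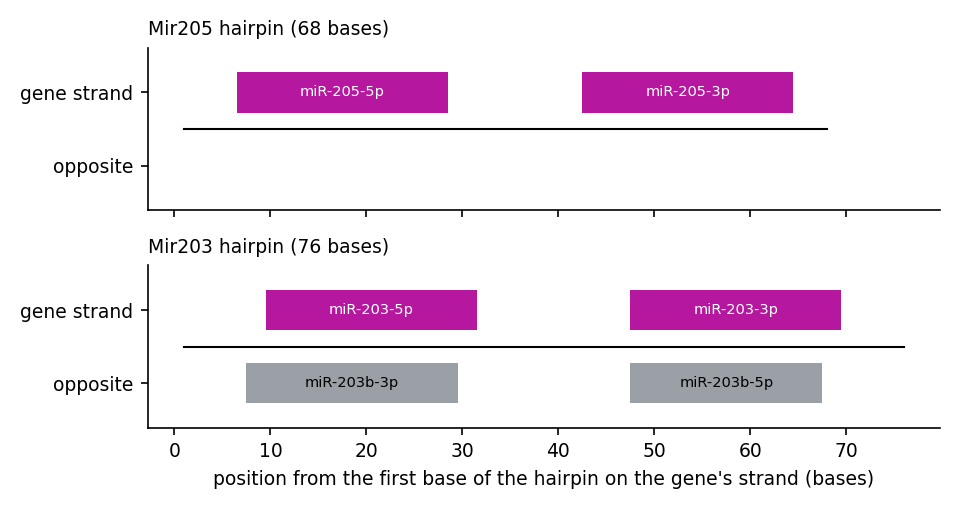
Positions of the mature arms along the Mir205 (68 bases) and Mir203 (76 bases) hairpins, in bases from the hairpin's first base. Bars above the line are arms on the gene's strand, and grey bars below are the arms of Mir203b on the opposite strand. Each Mir203b arm faces an arm of Mir203, and RefSeq gave no arms opposite Mir205.

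The libraries held 2853511 counts on the strand of a miRNA gene in replicate 1 and 3517226 in replicate 2, 41.8% and 40.7% of their reads. Levels are in CPM, the gene's count scaled to these totals, with the SD over the 2 libraries. Where a gene has 0 counts, its level may still reach 1.05 CPM (replicate 1) or 0.853 CPM (replicate 2), the worth of 3 counts. Counting error is all that the intervals and tests cover, since PCR copies of a read are not independent molecules.

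By the counts used here, Mir205 was among the most abundant miRNA genes of the face. Multimapping reads, 27.6% of replicate 1 and 25.9% of replicate 2, are outside these counts. Of 1894 hairpins, 923 share a 20-base stretch with another. Genes with such copies may be undercounted, which can raise the ranks and shares of Mir205 and Mir203. Mir205 had 27647 counts in replicate 1, which is 9689 CPM, and 30547 counts in replicate 2, which is 8685 CPM. It thus took 0.969% of all miRNA counts in replicate 1 (exact Clopper-Pearson 95% interval 0.958% to 0.980%) and 0.869% in replicate 2 (0.859% to 0.878%). It ranked 20th of 1973 genes in replicate 1 and 25th in replicate 2, and 21st by mean level (9187 ± 710 CPM, SD, n = 2). Ranks use counts on a gene's own strand only. Gm24321 had 0 such counts, but 26030 on its opposite strand in replicate 1 and 34755 in replicate 2. Those were fewer than the counts of Mir205 in replicate 1 and more in replicate 2.

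Mir203 was lower and less even between the pools. It had 9708 counts in replicate 1, which is 3402 CPM, and 7807 counts in replicate 2, which is 2219.6 CPM. These were 0.340% of all miRNA counts in replicate 1 (interval 0.333% to 0.347%) and 0.222% in replicate 2 (interval 0.217% to 0.227%). It ranked 57th and 68th, and 61st by mean level (2811 ± 836 CPM, SD, n = 2). These ranks also leave out opposite-strand counts. Gm25301 had 10421 of these in replicate 1 and 11654 in replicate 2, above Mir203 in both. Gm25252 (6893 and 9220) and Gm24083 (7169 and 8900) were above it in replicate 2 only. Mir205 and Mir203 were both lower in replicate 2, and the level of Mir203 in its higher library was below that of Mir205 in its lower library.

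**Figure D2:**
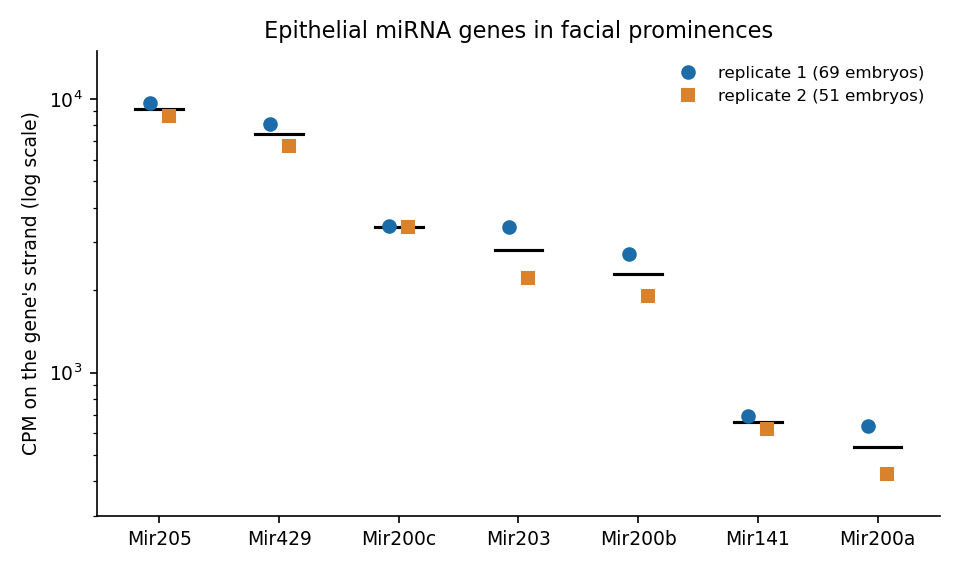
CPM of the 7 epithelial miRNA genes on a log scale, with circles for replicate 1, squares for replicate 2 and lines for the mean. Mir205 is the highest of the 7 in both libraries (9689 and 8685 CPM), while Mir203 lies close to Mir200c in replicate 1 (3402 against 3441 CPM) and below it in replicate 2.

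In the order of all genes by counts on their own strand, 18 genes were above Mir205 in both libraries without overlap, and 1945 were below it. The ranges of the other 9 over the libraries overlapped that of Mir205. Within the libraries, Mir487b was above Mir205 in each, 3 of the 9 (Mir30a, Mir143 and Mir23b) were below it in each, and for the other 5 the order differed between the libraries. Next above it were Mir487b (9738 ± 183 CPM) and Mir92-1 (9697 ± 680 CPM), and next below it Mir411 (9126 ± 721 CPM) and Mir431 (8727 ± 890 CPM). Mir92-1 belongs to the growth-promoting cluster of Mir17, and the other 3 are imprinted genes of the Dlk1-Dio3 region. All 4 are among the 9.

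For Mir203, by the same counts, 53 genes were above in both libraries without overlap, 1900 were below, and 19 overlapped its wider range. Next above it were Mir200c (3416 ± 35.1 CPM) and Mir324 (3266 ± 115 CPM), and next below Mir361 (2802 ± 166 CPM) and Mir125a (2698 ± 145 CPM). These 4 also overlapped Mir203 in range. Within the libraries, 3 of the 19, Mir200c among them, were above Mir203 in each, 5 were below it in each, and the order of 11 differed between the libraries.

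The genes nearest to each member in both libraries together were found by the Euclidean distance of log2(CPM + 0.5) over the 2 libraries. For Mir205 these were Mir23b (distance 0.121), Mir487b (0.148) and Mir143 (0.176), the last known from smooth muscle and mesenchyme. For Mir203 they were Mir351 (0.354), Mir125a (0.360) and Mir200b (0.400). With 2 libraries such likeness describes level and the difference between the pools, and nothing more.

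Scaled to the library totals, both members were called lower in replicate 2 by the exact binomial test across genes, by unequal amounts. Mir205 was higher in replicate 2 when scaled to the Mir200 family, as described further on. The log2 ratio of Mir205, replicate 2 over replicate 1, was -0.16 (exact 95% counting interval -0.18 to -0.13, adjusted p = 1.61e-38 by the exact binomial test). That of Mir203 was -0.62 (-0.66 to -0.57, adjusted p = 2.45e-173 by the exact binomial test), a level 1.53 times as high in replicate 1. The counting intervals of the 2 genes do not overlap. Such calls were common: 181 of the 449 genes tested were called in either direction, or 40.3%, and 91 were called lower in replicate 2, or 20.3%. The test compares these 2 libraries and not conditions, and at these counts it also calls small ratios, such as that of Mir487b (log2 ratio -0.04).

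Against that spread, Mir205 lay near the middle of the genes. Over the 320 genes whose mean was 10 CPM or more the log2 ratio had a median of 0.02 and an SD of 0.39, and 179 of them differed between the pools by more than Mir205. Mir203 was nearer the edge: 29 of the 320 genes (9.06%) differed by more, and 15 were lower in replicate 2 than it. Among the 104 genes whose mean was 1000 CPM or more, 7 differed by more than Mir203 and 55 by more than Mir205.

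**Figure D3:**
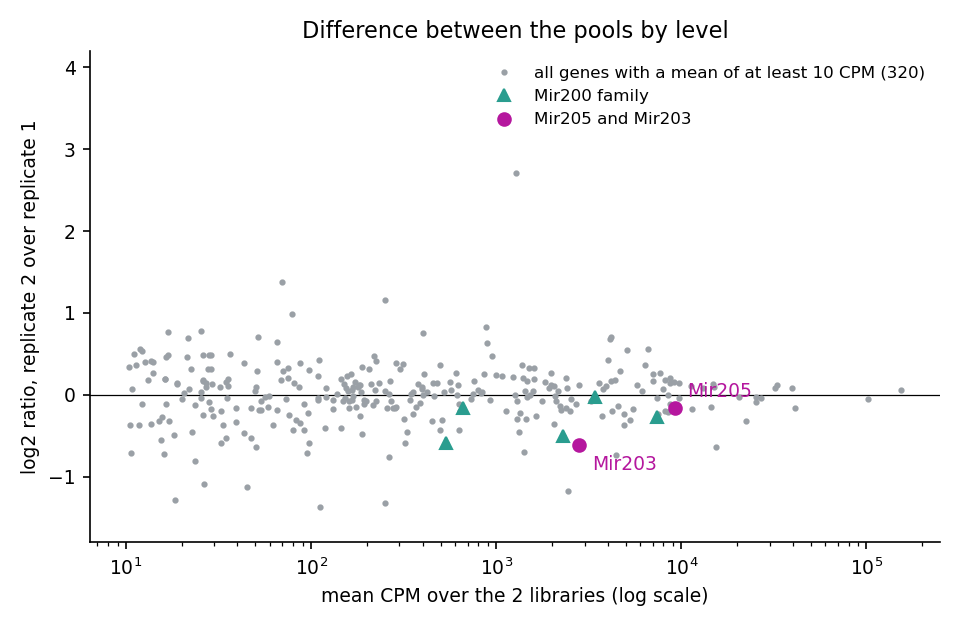
Log2 ratio of replicate 2 over replicate 1 against mean CPM (log scale) for the 320 genes averaging 10 CPM or more. Mir205, at -0.16, lies within the band of genes of like level, Mir203, at -0.62, near its lower edge, and all 5 Mir200 genes (triangles) lie below 0.

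Genes of other cell layers also differed between the pools. In bulk tissue, fewer epithelial cells and less miRNA per cell cannot be told apart. The 7 epithelial genes (Mir205, Mir203 and the Mir200 family) summed to 28691 CPM (replicate 1) and 23965 CPM (replicate 2), and 6 of the 7 were lower past the test, against 20.3% of all genes tested. The 7 mesenchymal genes, led by Mir214, summed to 30706 and 27041 CPM, with 4 of the 7 lower past the test. The 3 genes of the sensory placode list, led by Mir182, summed to 36062 and 27292 CPM, all 3 lower past the test. The 20.3% is over all tested genes, many of them of low count, where the test calls only larger ratios. Most genes of these lists have high counts, so it is no background of like depth. Nothing particular to a list is read from these calls. The endothelial gene Mir126a went the other way, with 31642 CPM in replicate 1 and 34369 CPM in replicate 2.

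Genes of blood and nerve cells were summed in the same way. Erythroid genes summed to 420 CPM (replicate 1) and 205 CPM (replicate 2), with 1 of 3 genes, Mir451a, lower past the test, against 20.3% of all genes. The leukocyte list had 429 and 419 CPM over 3 matched genes, with Mir142b at 0 in both libraries and Mir142 not matched. Mir142, a defining leukocyte gene, is annotated on the opposite strand of Mir142b. There 1998 counts were found in replicate 1 and 2448 in replicate 2, which is 700.2 and 696 CPM. These counts are outside the list's sum and exceed it in each library. The neural list had 723 and 630 CPM over 6 matched genes, nearly all from Mir137, with Mir9-1 not matched. Of these, 2 were called higher in replicate 2 and 2 lower, against 40.3% of all genes called in either direction. The 5 genes besides Mir137 are copies of Mir9 and Mir124a, and each has 20 bases in a row that also occur in a further miRNA gene. Reads that mapped to several places were left out of the gene counts, so the level of these copies cannot be read from them. Among the neuronal Mir124a copies, Mir124a-1 had 0 counts in replicate 1 and 1 in replicate 2. Mir124a-2 had 3 and 16, and Mir124a-3 had 0 and 12, the latter 2 being those called higher in replicate 2. The part of any of these lists in the levels of Mir205 and Mir203 was not tested.

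Measured against the mesenchymal genes, Mir205 was 0.316 times their sum in replicate 1 and 0.321 times in replicate 2, a log2 ratio of 0.026 that did not pass the test (adjusted p = 0.0694 by the exact binomial test). This scaling was added after the data were seen. The test took the mesenchymal sum as fixed, without its own counting error, so this p-value is too small. Because of the Mir199 copies the sum itself may be too low. Mir203 was 0.111 times that sum in replicate 1 and 0.0821 times in replicate 2.

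Mir205 exceeded Mir203 in both pools, and by more in replicate 2. The ratio of Mir205 to Mir203 was 2.85 in replicate 1 (exact 95% counting interval 2.78 to 2.91) and 3.91 in replicate 2 (3.82 to 4.01), or 3.38 ± 0.753 (SD, n = 2). Put as a share of the counts of both genes, Mir205 had 74.0% (73.6% to 74.5%) in replicate 1 and 79.6% (79.2% to 80.0%) in replicate 2. These intervals do not overlap, and no test over samples is possible with 1 pool on each side.

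Together Mir205 and Mir203 held nearly the same part of the epithelial counts in both pools. They took 45.6% of the counts of the 7 epithelial genes in replicate 1 (45.3% to 46.0%) and 45.5% in replicate 2 (45.2% to 45.8%). With the summed share nearly fixed, a higher share of one gene is a lower share of the other, and by CPM both were lower in replicate 2. The share of Mir205 was 33.8% (33.4% to 34.1%) in replicate 1 and 36.2% (35.9% to 36.6%) in replicate 2. For Mir203 it was 11.9% (11.6% to 12.1%) in replicate 1 and 9.26% (9.07% to 9.46%) in replicate 2. In each case the intervals of the pools do not overlap, whereas those of the summed share do.

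**Figure D4:**
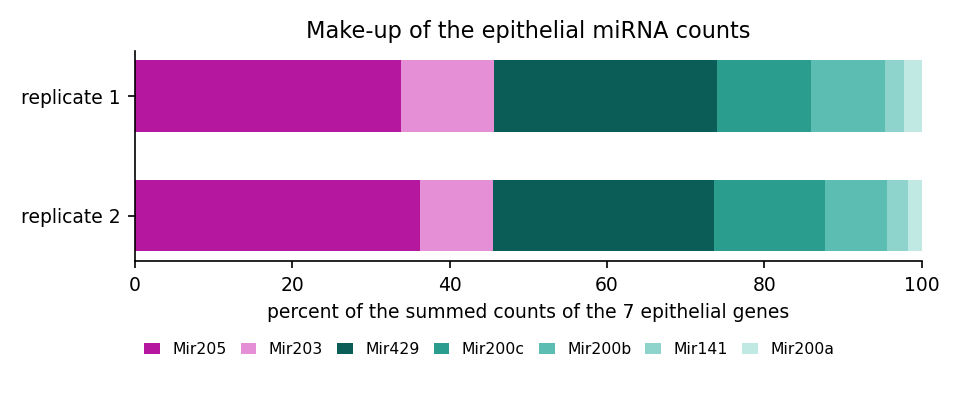
Percent of the summed counts of the 7 epithelial genes held by each gene, 1 bar for each library. The boundary after Mir205 and Mir203 stands at 45.6% in replicate 1 and 45.5% in replicate 2, while the boundary between them moves from 33.8% to 36.2%.

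The direction of Mir205 therefore depends on what it is measured against. Scaled to the summed counts of the Mir200 family its log2 ratio was 0.10 (adjusted p = 8.15e-16 by the exact binomial test), higher in replicate 2 in place of lower. Mir205 was 0.621 times the Mir200 sum in replicate 1 and 0.665 times in replicate 2. Mir203 stayed lower in replicate 2 on this scale, with a log2 ratio of -0.36 (adjusted p = 6.87e-60 by the exact binomial test). It was 0.218 times the Mir200 sum in replicate 1 and 0.170 times in replicate 2. The test took that sum as fixed, without its own counting error, so the p-values on this scale are too small.

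Among single Mir200 genes, which hold the epithelial state by repressing Zeb1 and Zeb2, the nearest match in ratio differed for the members. Mir205 kept its proportion to Mir141, at 13.9 times its CPM in both libraries, and both genes had a log2 ratio of -0.16. Mir203 kept close to Mir200a, at 5.32 times its CPM in replicate 1 and 5.19 times in replicate 2, and to Mir200b, at 1.26 and 1.17 times. Mir200a (log2 ratio -0.58) and Mir200b (-0.51) fell with it, while Mir429, the third gene of their cluster on chromosome 4, had -0.27. The pair on chromosome 6 was Mir141 and Mir200c, and Mir200c, at -0.02, did not pass the test. Mir203 was 0.989 times Mir200c in replicate 1 and 0.655 times in replicate 2. These matches rest on 2 libraries and were picked out after the ratios were seen.

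**Figure D5:**
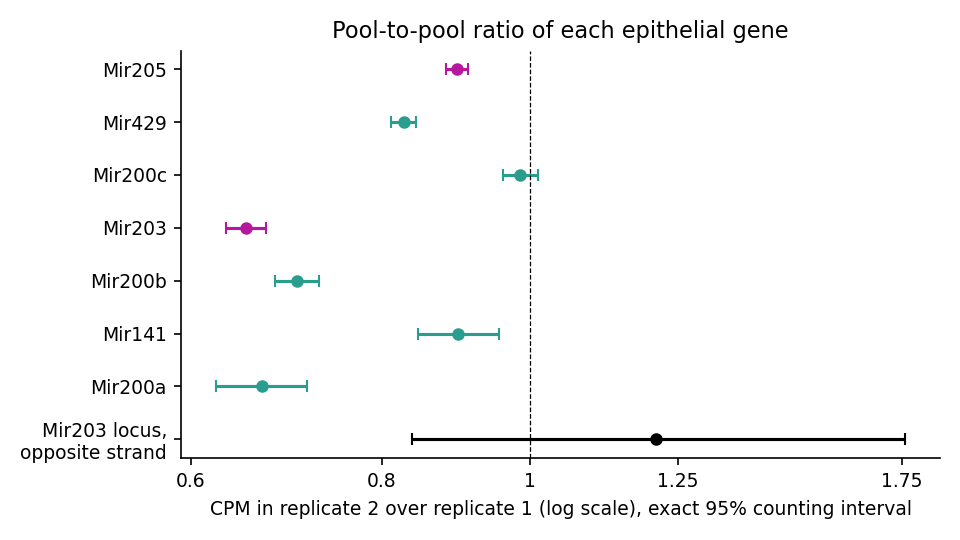
CPM in replicate 2 over replicate 1 (log scale) for the 7 epithelial genes and for reads on the opposite strand of Mir203, with exact 95% counting intervals and a dashed line at equality. Mir203 (0.652), Mir200a (0.668) and Mir200b (0.704) form the lower group, Mir205 (0.896) lies with Mir141 (0.898), and the opposite-strand interval (0.837 to 1.76) includes 1.

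Reads were also counted on the opposite strand of Mir203, where RefSeq places Mir203b. There were 51 such counts in replicate 1 and 76 in replicate 2, which is 17.9 and 21.6 CPM. They made up 0.523% of the counts at the locus in replicate 1 (exact 95% interval 0.389% to 0.687%) and 0.964% in replicate 2 (0.760% to 1.21%). The share was thus higher in replicate 2, and the intervals do not overlap. By the point values most of that difference lay on the gene's strand, but with 51 and 76 opposite-strand counts the split stays uncertain. The opposite-strand CPM in replicate 2 was 1.21 times that in replicate 1, with an exact counting interval of 0.837 to 1.76 that includes equality, whereas the gene-strand CPM was 0.652 times (0.633 to 0.672).

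Opposite-strand reads at Mir205 were not detected, with 0 counts of 27647 and of 30547, which allows a share of up to 0.0109% in replicate 1 and 0.00982% in replicate 2. This was the usual case. Of the 254 genes with at least 100 gene-strand counts in each library, 225 had no opposite-strand count in either. Only 4 of the 254, namely Mir3074-1, Mir203, Mir337 and Mir708, had at least 10 in each library. By share over both libraries Mir203 (0.720%) was exceeded in the 254 by Mir3074-1 (23.1%), and by Mir24-2 and Mir338, which had 6 and 2 such counts. These other genes were named after their values were seen. The count tables have no row for Mir203b and no read positions, so they do not show whether the opposite-strand reads at Mir203 came from it, or from which arm.

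The epidermal list, miRNAs known from skin, hair or cornea, was led by Mir21a, which is induced in wounded and tumorous skin. Mir21a had 8108 CPM in replicate 1 and 6898 CPM in replicate 2, between Mir205 and Mir203 in both libraries. Of the 6 genes, 2 were lower in replicate 2 past the exact test (Mir21a and Mir125b-1), 1 was higher (Mir31) and 3 did not pass (Mir184, Mir125b-2 and Mir34a), with a median log2 ratio of -0.22. Over all genes tested 40.3% were called, so these 3 calls of 6 are no result about the list. Mir31, known from the hair follicle, had 251 CPM in replicate 1 and 281 CPM in replicate 2. Mir184, known from the corneal epithelium, had 17.2 and 14.2 CPM. Mir125b-1 had 1594 CPM in replicate 1 and 1303 CPM in replicate 2, and Mir125b-2, a copy of the same mature miRNA known from skin stem cells, 416 and 425 CPM. Mir205 alone thus had 0.924 times the sum of this list in replicate 1 and 0.964 times in replicate 2. The Mir125b copies each share a 20-base stretch with another hairpin, and reads that mapped to several places are outside the counts. Their levels and the sum may thus be too low, and these ratios too high. Several genes of this list, Mir21a and the Mir125b copies among them, are also expressed widely outside epithelium, so the list does not mark epidermis by itself.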

How the data were processed

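Small RNA libraries from pooled facial prominences were quantified by the authors as raw counts of reads per miRNA gene on build mm10 (annotation GENCODE M4), according to text files deposited beside the tables. The sources used here give neither the aligner nor the counter. For each gene the deposited tables hold a count on either strand, on the gene's strand and on the opposite strand, and in all 1973 genes the first equals the sum of the others. The 4 summary lines (unmapped 21.6% and 24.1%, multimapping 27.6% and 25.9%, outside genes 9.01% and 9.32%, ambiguous 0 reads) stayed out of the totals. GENCODE M21 gave symbols for 1894 identifiers.

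CPM and log2 ratios (pseudocount 0.5 CPM) were computed from the counts on the gene's strand. A two-sided exact binomial test compared the replicate 2 share of each of 449 genes (10 or more counts over both libraries) with that of the library totals. Its p-values were adjusted by Benjamini-Hochberg over these genes, with a threshold of 0.05. It was tried on simulated counts that held counting error only. They had no spread between libraries and no PCR copies, so the trial does not show how the test behaves with these. Intervals are exact Clopper-Pearson at 95% (scipy 1.17.1). Alternative scalings used edgeR 4.0.16 (TMM) and DESeq2 1.42.0 (size factors). Folding energies came from RNAfold 2.7.2.

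The members and gene lists were chosen with earlier results of these data known. Genes named by rule are both members, genes opposite them, the Mir200 family and the highest of each list. The rule also took the 2 next above and below each member and the 3 nearest in pattern. Others are further list members, genes whose range overlaps a member's, neighbours on the chromosome and genes with opposite-strand counts. Several of these others were picked after their values were seen. The labels call the libraries biological replicates. The p-values measure counting error between these 2 pools and no spread within a group.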

Additional observations from a re-analysis of the deposited data

How the results depend on the processing

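Leaving out a replicate (14 alternatives) moves a mean of 2 libraries by less than their SD in every case, and leaving out genes that share a 20-base stretch (3 alternatives) removed no epithelial gene, so these 17 test nothing. Of the other 35, 29 counted as unchanged, though some of these could hardly change, as given below. A log2 ratio had to keep its direction and its side of the threshold. The number of genes called had to stay within a set fold of the 181 reported. Any other value had to move by less than that SD. The log2 ratio of Mir205 reversed when scaled to the Mir200 family (0.10) and, in an alternative added after the data were seen, to the mesenchymal list (0.026, adjusted p = 0.0694 by the exact binomial test); the cause was not tested. The log2 ratio of Mir203 stayed negative and past the test in all 9 alternatives run, from -0.65 to -0.36. Dropping the pseudocount or the minimum count (both -0.616) could hardly move it at such counts, and the same holds for Mir205. The unstranded count adds no read at Mir205 and few at Mir203. These settings therefore add little support. Scaling to a gene list took its sum as fixed, so those p-values leave out the sum's counting error. Scaled to all reads of the library the levels were 3791 for Mir205 and 1162 for Mir203, and with totals that leave out the 10 highest genes 18409 and 5634, by construction of the denominator. Genes called between the libraries numbered 169 to 186. Leaving out a replicate gives the other library alone: 8685 to 9689 CPM for Mir205, 2219.6 to 3402 CPM for Mir203, and 2.85 to 3.91 for their ratio. The ratios between libraries need both, so no replicate could be left out there. No paired analysis was possible because there is 1 group. The opposite-strand share at Mir203 is limited by depth, with 51 and 76 counts.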
